A study of Fragaria vesca with 9 samples.

Results

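Axillary buds of the RdV ecotype of woodland strawberry, *Fragaria vesca*, were compared with axillary buds of FT3OE. FT3OE is taken as an FT3 overexpression line; the labels give its ecotype as Hawaii-4 and put FT3 in its titles. The comparison took every library of both genotypes, 3 RdV and 3 FT3OE, which is 6 of the 9 libraries of the series, and covered 18587 of 34006 genes after a filter on low counts. The other 3 libraries, from unmodified Hawaii-4 plants and called H4 here, shared the fit and are given beside the results as another level. The undifferentiated buds came from node 4 of untreated plants with 4 leaves, grown in 16 h days at 22 °C and 8 h nights at 18 °C under 250 µmol m−2 s−1. RdV and FT3OE carry the same code in their sample titles, UB4, whereas H4 carries US4. The labels define neither code, so wherever H4 values appear the code and the genotype cannot be told apart. RdV and FT3OE differ both in ecotype and in the transgene, and this comparison cannot tell those apart either. The labels give no promoter for FT3OE and do not say how many transformed lines or how many plants made a library. Nor do they state whether replicates were separate plants; p-values here rest on a spread that may be technical.

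An axillary bud, formed where a leaf joins the stem, grows in strawberry into a runner, which makes daughter plants, or into a branch crown, a compact side shoot able to flower. The buds taken here had not yet shown either fate. FT proteins are a small family of mobile signals best known in *Arabidopsis*, where FLOWERING LOCUS T moves from the leaf to the shoot tip and starts flowering. The series is about the choice of fate in such buds and their growth into branch crowns. Setting RdV beside FT3OE asks how far the bud of another ecotype differs from that of a Hawaii-4 line taken to overexpress FT3. The tables list genes by identifier without names, and 0 of 34006 identifiers matched the reference gene table, so no gene function is given for any identifier. The gene overexpressed in FT3OE is likewise not identified by name here.

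Libraries within RdV differed more from each other than libraries within FT3OE. Between-library variation beyond counting noise, as a biological coefficient of variation, was 15.2% within RdV and 7.82% within FT3OE, with 7.81% within H4. Within RdV the value was 10.5% without replicate 2, 13.8% without replicate 1 and 18.2% without replicate 3. RdV replicate 1 also stood apart. It alone held 84 genes with at least 50 counts and at least 10 times the CPM (counts scaled to a common library total) of every other library, against at most 1 such gene in any of the other libraries. These genes held 24908 counts in RdV replicate 1 and 389 to 627 in each of the others, and 68 of the 84 were too low elsewhere to be tested. Even so, the first principal component of the 6 libraries, with 69.3% of the variance, placed RdV at 30.78 to 39.06 and FT3OE at −36.67 to −31.80. Total counts were 26797546 to 30507161 in RdV and 26493202 to 44916866 in FT3OE.

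Of 18587 genes tested, 4122 differed between RdV and FT3OE (22.2%), 2062 higher in RdV (11.1%) and 2060 lower (11.1%), by edgeR's quasi-likelihood test at a Benjamini-Hochberg adjusted p under 0.05. Most of these differences were small. Their median absolute log2 fold change was 0.51, a 1.42-fold difference, with an interquartile range of 0.31 to 0.96. A difference of at least 2-fold was found in 977 called genes (5.26% of those tested), 539 higher and 438 lower in RdV. This count was 571 with limma on log2(TPM + 1), 555 with a minimum mean of 1 TPM as well, and 372 when glmTreat tested against a 2-fold limit. The 4122 calls became 2281 at an adjusted p under 0.01, and 3434 in a fit of the 6 libraries alone. With the replicate number as a block as well, that fit gave 2059. At least 4-fold differences numbered 367, and at least 8-fold 222, of which 110 were higher and 112 lower. In 4094 of the 4122 called genes every RdV library lay on the same side of every FT3OE library, a separation seen in 37.8% of all genes tested.

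**Figure D1:**
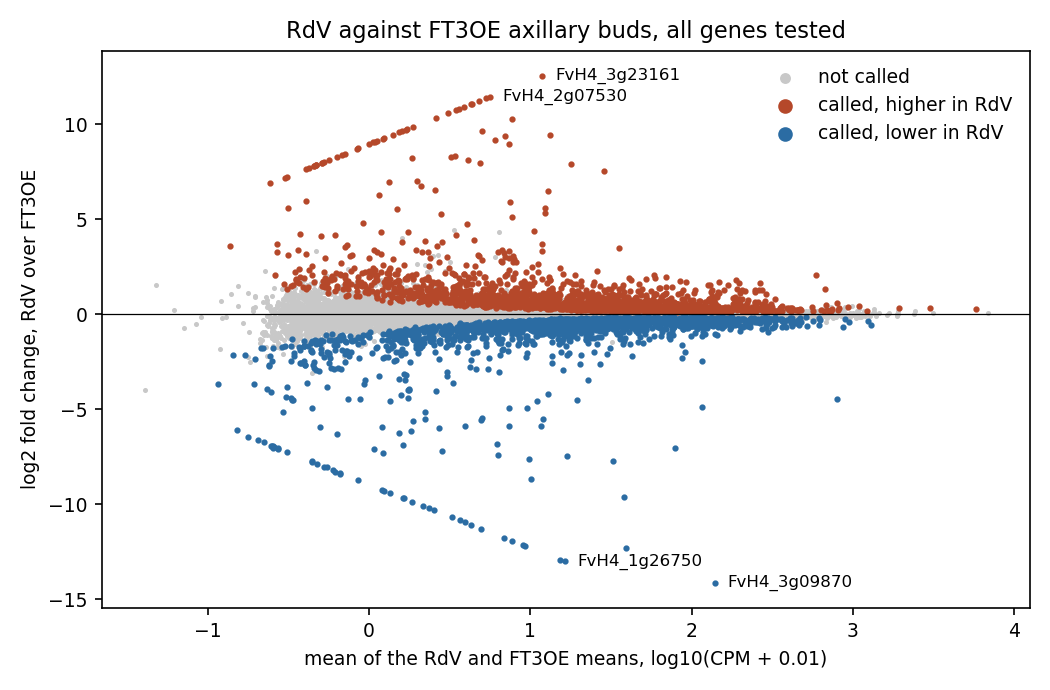
Each point is 1 of 18587 genes, with the mean of the RdV and FT3OE levels on a log10 scale across and the log2 fold change of RdV over FT3OE up the page. Red and blue mark the 2062 higher and 2060 lower genes; the outer rows of points are genes with 0 counts on one side, whose fitted change depends on the prior count.

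For many genes that did not pass the test, the shared fit put a limit on the difference. That fit gives all genotypes the same spread for a gene. The biological coefficient of variation was 15.2% within RdV, 7.82% within FT3OE and 7.81% within H4. The intervals may therefore be too narrow, and the calls too many, for this contrast. Among 14465 genes not called, the 95% interval of the fold change lay within 1.5-fold in either direction in 10380 (71.8%) and within 2-fold in 12467 (86.2%). In the remaining 1998, a 2-fold difference lay inside the interval. An unadjusted p under 0.05 was found in 2255 of the genes not called.

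Large differences lay mostly among weakly expressed genes. In the quartile of tested genes with the lowest mean level, with a median of 1.6 CPM over the 6 libraries, 634 genes (13.6%) were called and differed at least 2-fold. In the quartile with the highest level, with a median of 101.2 CPM, 63 genes did so (1.36%). The share called at any size varied less, at 19.3% in the lowest quartile and 23.3% in the highest. Precision differed between them, with a median standard error of the log2 change of 0.30 in the lowest quartile and 0.063 in the highest.

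Called genes were also found among the most abundant transcripts. Of the 100 genes with the highest mean TPM (a level scaled by gene length and library), 13 were called (13%). This was below the 22.2% called among all genes tested. Of the 13, 6 were higher and 7 lower in RdV, with a largest absolute log2 change of 1.39. Of the top 1000, 237 were called (23.7%), near the share over all genes tested. The largest absolute log2 change among them was 14.12, that of FvH4_3g09870. The top 100 made up 15.33%, 17.30% and 15.93% of TPM in RdV replicates 1, 2 and 3, and 16.00%, 15.37% and 16.11% in FT3OE. RdV and FT3OE overlapped in this share, with means of 16.2% ± 1.01 and 15.8% ± 0.40 (SD, n = 3 each) and p = 0.9 in a two-sided exact permutation test, for which 0.1 is the smallest p that 3 against 3 allows.

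As shares of all TPM, the called genes took up similar room in both directions. The 2062 higher genes made up 12.88%, 11.89% and 12.40% of TPM in RdV replicates 1, 2 and 3, against 8.96%, 8.79% and 9.04% in FT3OE. H4 held 8.32%, 8.33% and 8.27% in the same genes, below FT3OE. The 2060 lower genes made up 9.41%, 9.04% and 9.56% of TPM in RdV, against 12.72%, 13.28% and 12.86% in FT3OE, while H4 held 12.52% to 13.01%. These genes were chosen on this contrast, so the sums describe the size of the difference and carry no test.

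By the rule for named genes, 2 identifiers each are given for the higher and the lower side. FvH4_3g23161, on linkage group 3, led the higher genes. It had 783, 550 and 708 counts in RdV replicates 1, 2 and 3, and 0 in each FT3OE library and in each H4 library. Against a floor of 3 counts over the FT3OE group, its RdV level was higher by at least 941-fold. FvH4_3g23161 averaged 23.8 ± 2.8 CPM and 8.66 ± 1.46 TPM in RdV (SD, n = 3), with an edgeR adjusted p of 1.65e-06. FvH4_2g07530, on linkage group 2, followed the same pattern, so that both of these genes were read in RdV and in no library of the Hawaii-4 background. It had 370, 270 and 327 counts in RdV and 0 in each FT3OE and H4 library, so its RdV level exceeded the FT3OE floor by at least 446-fold (edgeR adjusted p = 5.62e-06). Its level was 14.1 ± 1.8 TPM in RdV (SD, n = 3).

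The 2 lower genes differed from each other in H4. FvH4_3g09870, on linkage group 3, had 1, 0 and 0 counts in RdV, against 7584, 11460 and 13889 in FT3OE replicates 1, 2 and 3, and 3, 1 and 0 in H4. It was high in FT3OE and near 0 in both unmodified genotypes, and it showed the largest absolute log2 fold change of all called genes. Its depth-scaled counts in RdV and FT3OE stood in a ratio of 23813 in favour of FT3OE (95% counting interval 4274 to 940597), where it averaged 453.3 ± 36.6 TPM (SD, n = 3; edgeR adjusted p = 1.17e-10). The RdV side rests on 1 count in RdV replicate 1, and the fitted log2 change of FvH4_3g09870 was −14.12 with that library and −16.10 without it. FvH4_1g26750, on linkage group 1, had 0 counts in each RdV library, against 980, 1312 and 1528 in FT3OE. H4 held 1027, 921 and 1004 counts of FvH4_1g26750, so this gene was read in both Hawaii-4 genotypes and not in RdV. It was at least 921-fold lower in RdV than in FT3OE, where its level was 48.1 ± 4.9 TPM (SD, n = 3; edgeR adjusted p = 4.49e-08). A count of 0 over the RdV libraries allows up to 0.035 CPM, for counting error only. How well RdV reads align to these gene models, whose identifiers begin with FvH4, was not tested. This holds for FvH4_1g26750, for the genes read on one side only and for all other genes compared.

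**Figure D2:**
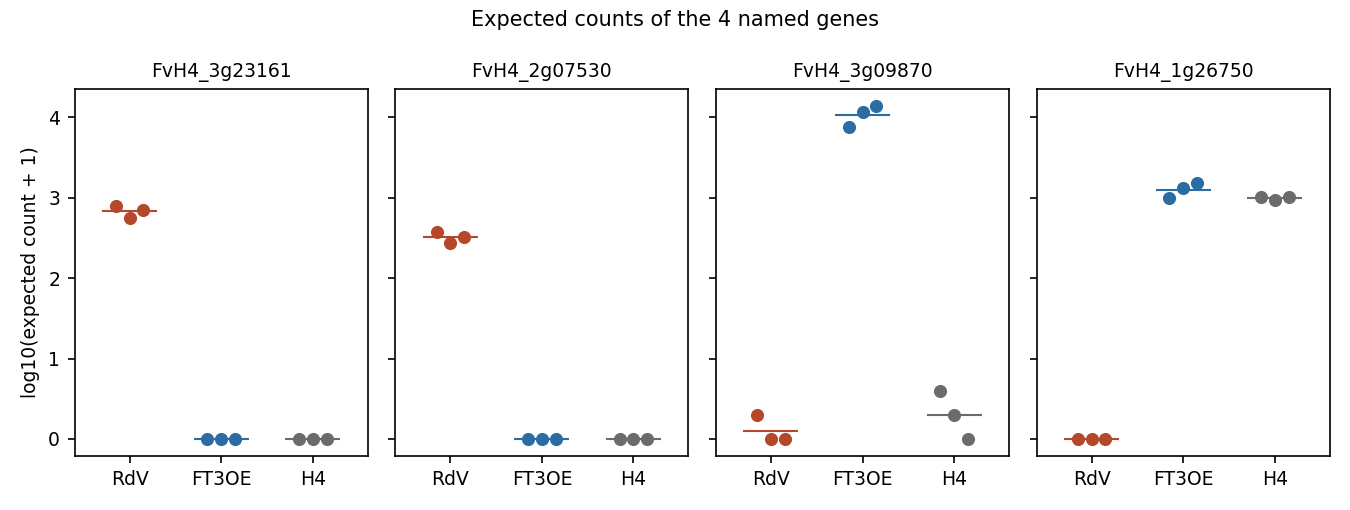
Expected counts of the 4 named genes on a log10(count + 1) scale, in RdV, FT3OE and H4, with 1 point per library and a line at the mean. FvH4_3g23161 and FvH4_2g07530 were read in RdV alone, FvH4_3g09870 in FT3OE apart from 5 counts elsewhere, and FvH4_1g26750 in FT3OE and H4.

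Genes read on one side only were about as many in each direction at the depths sequenced. With at least 10 counts in each library of one genotype and 0 in each of the other, RdV had 42 genes that FT3OE lacked, and FT3OE had 40 that RdV lacked. The 42 genes held 40 to 2041 counts each over the 3 RdV libraries, with a median of 183, and mean levels in RdV of 0.42 to 25.6 TPM. The 40 genes held 45 to 3820 counts over FT3OE, with a median of 237.5 and mean levels of 0.45 to 48.1 TPM. All 42, and 39 of the 40, passed the filter on low counts, and each of these was called, which the count rule by itself makes likely. Requiring 50 counts in each library left 19 and 20 genes. With libraries thinned to equal depth, 46 genes were read in RdV only and 32 in FT3OE only.

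In H4, most genes of both sets were read or at 0 as in FT3OE. Of the 42 genes read in RdV and not in FT3OE, 32 had 0 counts in all H4 libraries and another 7 had 1 to 3 counts in H4 in all. Of the 40 genes read in FT3OE and not in RdV, 37 had over 10 counts in H4 in all. The 3 exceptions on each side were chosen after their values were seen. FvH4_5g13500 had 0 counts in each RdV library, against 188, 281 and 293 in FT3OE, and 0, 0 and 2 in H4. FvH4_1g06140, too low to be tested, had 0 counts in RdV, 17, 40 and 13 in FT3OE and 0 in H4. FvH4_3g07042 had 0 counts in RdV, 12, 27 and 20 in FT3OE and 1 in each H4 library. With FvH4_3g09870, these are identifiers read mainly in FT3OE. In the other direction, FvH4_3g36381 had 39, 31 and 17 counts in RdV, 0 in each FT3OE library and 14, 14 and 29 in H4, so it was read in RdV and H4 and not in FT3OE. FvH4_2g12261 had 14, 17 and 18 counts in RdV, 0 in each FT3OE library and 3, 1 and 2 in H4. FvH4_6g36750 had 237, 187 and 236 counts in RdV, 0 in each FT3OE library and 4, 0 and 0 in H4, so both were low in H4. At 1 place the sets met: FvH4_4g26930 had 39, 47 and 28 counts in RdV and 0 in each FT3OE and H4 library, while its neighbour FvH4_4g26940 had 0 in each RdV library, 200, 327 and 334 in FT3OE and 181, 118 and 150 in H4. FvH4_3g43150 and FvH4_3g43170 had identical counts in every library, 28, 15 and 36 in RdV and 0 elsewhere, so each value is uncertain. Whether they share reads was not tested.

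**Figure D3:**
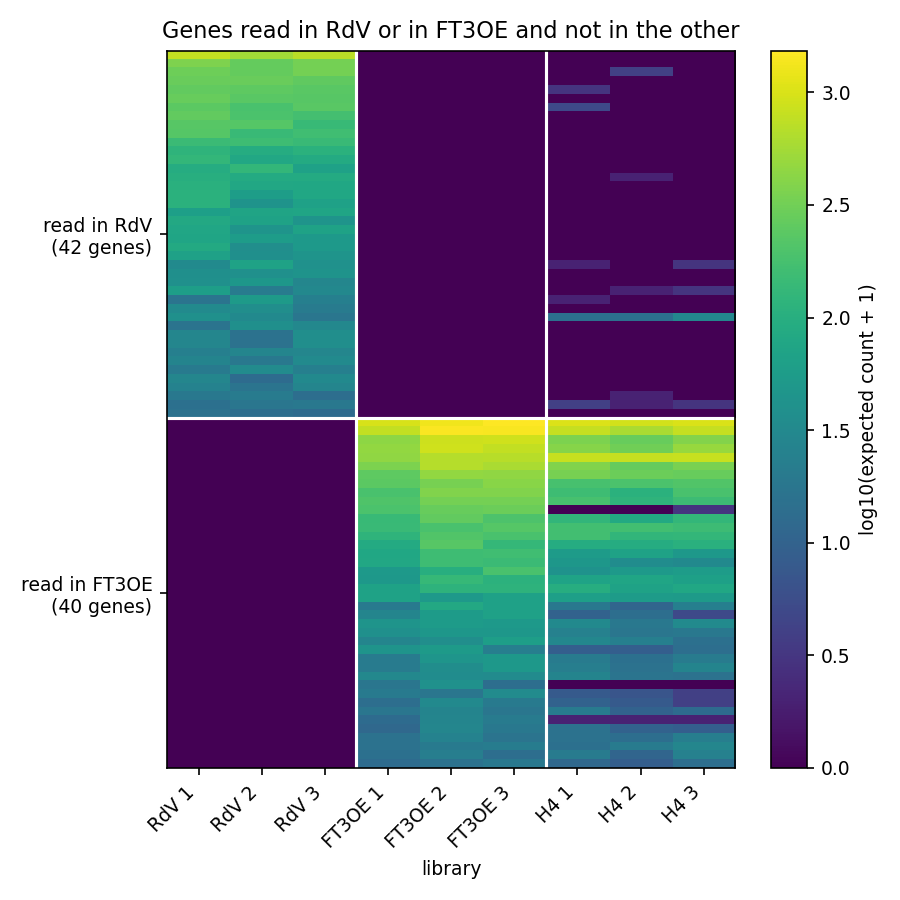
Each row is 1 of 82 genes and each column 1 library, coloured by log10(expected count + 1), with the 42 genes read in RdV above the 40 read in FT3OE. The H4 columns are dark for nearly all of the upper block and filled for nearly all of the lower one.

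Over all called genes, H4 more often lay on the side of FT3OE, with which it shares the Hawaii-4 background. On log2(CPM + 0.5) group means, H4 was nearer to FT3OE than to RdV in 3253 of 4122 called genes (78.9%), against 64.4% of all genes tested and 60.2% of those not called. The share was 77.2% among called genes under 1.5-fold and 89.6% among the 222 that differed at least 8-fold. Of the 23 genes of at least 8-fold for which H4 lay nearer RdV, 6 were higher and 17 lower in RdV than in FT3OE. H4 was nearer RdV in 401 of the 2062 higher genes and in 468 of the 2060 lower ones. The called genes were chosen on this contrast, and RdV libraries varied more than those of FT3OE. These shares are therefore a description, and how much of them that choice makes was not tested.

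**Figure D4:**
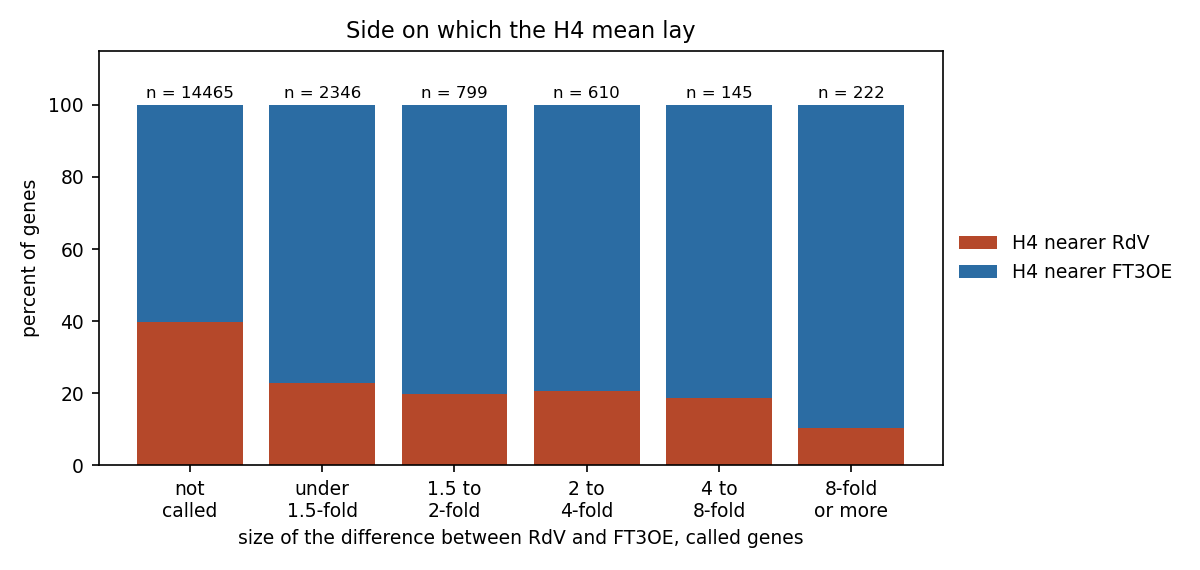
Bars give the percent of genes whose H4 mean lay nearer to RdV (red) or to FT3OE (blue), by the size of the difference between RdV and FT3OE. The blue share is 60.2% for genes not called and 89.6% for called genes of 8-fold or more.

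Set side by side, the comparisons with H4 gave the called genes these medians. The 2062 higher genes had a median log2 fold change of 0.62 in RdV over H4 and 0.06 in FT3OE over H4. The 2060 lower genes had medians of −0.50 in RdV over H4 and 0.01 in FT3OE over H4. Over all genes tested the medians were −0.00 and 0.01. All 3 comparisons share libraries, so these values are not independent of one another.

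Calls were spread over the genome. With linkage groups read from the identifiers themselves (3 for FvH4_3g23161, for example), a naming convention and not an annotation, the share of tested genes called ran between 19.1% on linkage group 2 and 24.9% on linkage group 7. The other 5 lay between 21.0% and 23.4%. Higher genes made up 55.4% of the calls on linkage group 5, and 48.1% to 51.3% on the others. Genes read on one side only were less even, in small numbers and without a test. Of the 42 read in RdV, 14 lay on linkage group 3, which held 2940 of the 18587 genes tested. Of the 40 read in FT3OE, 10 lay on linkage group 1, which held 2097. The 14 include the neighbours FvH4_3g37483 and FvH4_3g37484, the neighbours FvH4_3g42780 and FvH4_3g42790, and FvH4_3g43150 and FvH4_3g43170, whose counts were identical.

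Called neighbours mostly differed in the same direction. Among 18566 pairs of tested genes next to each other in identifier order, both members were called in 1101, in the same direction in 672 (61.0%). The gene next to a called one was itself called in 26.7% of cases, near the 22.2% of all genes tested. For called differences of at least 4-fold, 53 neighbouring pairs held 2 such genes, and 45 of these pairs (84.9%) went in one direction. The next tested gene also differed at least 4-fold in 14.5% of cases, against 1.97% of all genes tested. Such pairs can include near-identical copies between which the authors' estimation divided reads, which makes single members uncertain, and this was not tested.

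The densest run of calls stood at the end of linkage group 5. Of the last 20 tested genes there, 17 were higher in RdV than in FT3OE and none lower, whereas of the 20 tested genes before them 2 were higher and 5 lower. Their fold changes were moderate and shared, with 19 of 20 above 0, a median log2 change of 0.63 (1.55-fold) and a highest of 1.82. Together the 20 genes had 1491.6, 1262.3 and 1525.2 TPM in RdV replicates 1, 2 and 3, and 858.0, 868.9 and 854.6 TPM in FT3OE. H4, at 810.5, 807.5 and 814.7 TPM, lay just under FT3OE, so RdV stood apart from both. Over 18440 windows of 20 tested genes the median number of higher genes was 2 and the 95th percentile 5. The next densest separate windows held 9 higher genes each.

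Runs of lower genes held fewer calls and were found in more windows. Of all windows, 34 held at least 10 lower genes and 8 held at least 10 higher genes. Those 8 windows overlap one another at the end of linkage group 5, and the 34 lie on linkage groups 4, 6 and 7. The window with most lower genes, tested genes 3326 to 3345 of 3534 on linkage group 6, held 12 lower and 2 higher. Its 20 genes together had 293.6, 281.0 and 290.6 TPM in RdV, against 428.1, 446.4 and 447.2 TPM in FT3OE and 404.8 to 417.9 TPM in H4. A window on linkage group 4, tested genes 1651 to 1670 of 2394, held 11 lower genes, with 793.0, 770.8 and 790.8 TPM in RdV, against 1115.1, 1080.2 and 1121.3 TPM in FT3OE. On linkage group 7, tested genes 862 to 881 of 2248 held 10 lower genes, 1 higher gene and 7 differences of at least 4-fold. Over the alternatives tried the lower calls numbered 10 to 12 in the window on linkage group 6, 5 to 11 in that on linkage group 4 (7 without FT3OE replicate 1, 6 without RdV replicate 3) and 6 to 11 in that on linkage group 7. In each of these 3 windows the summed TPM of every RdV library lay below that of every FT3OE library. Another window on linkage group 7, tested genes 1112 to 1131, held 10 lower and 6 higher genes. Its summed TPM overlapped between the groups, at 369.1, 323.0 and 373.0 in RdV and 346.4, 364.2 and 338.1 in FT3OE. The windows were chosen for their calls, so their values are a description.

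**Figure D5:**
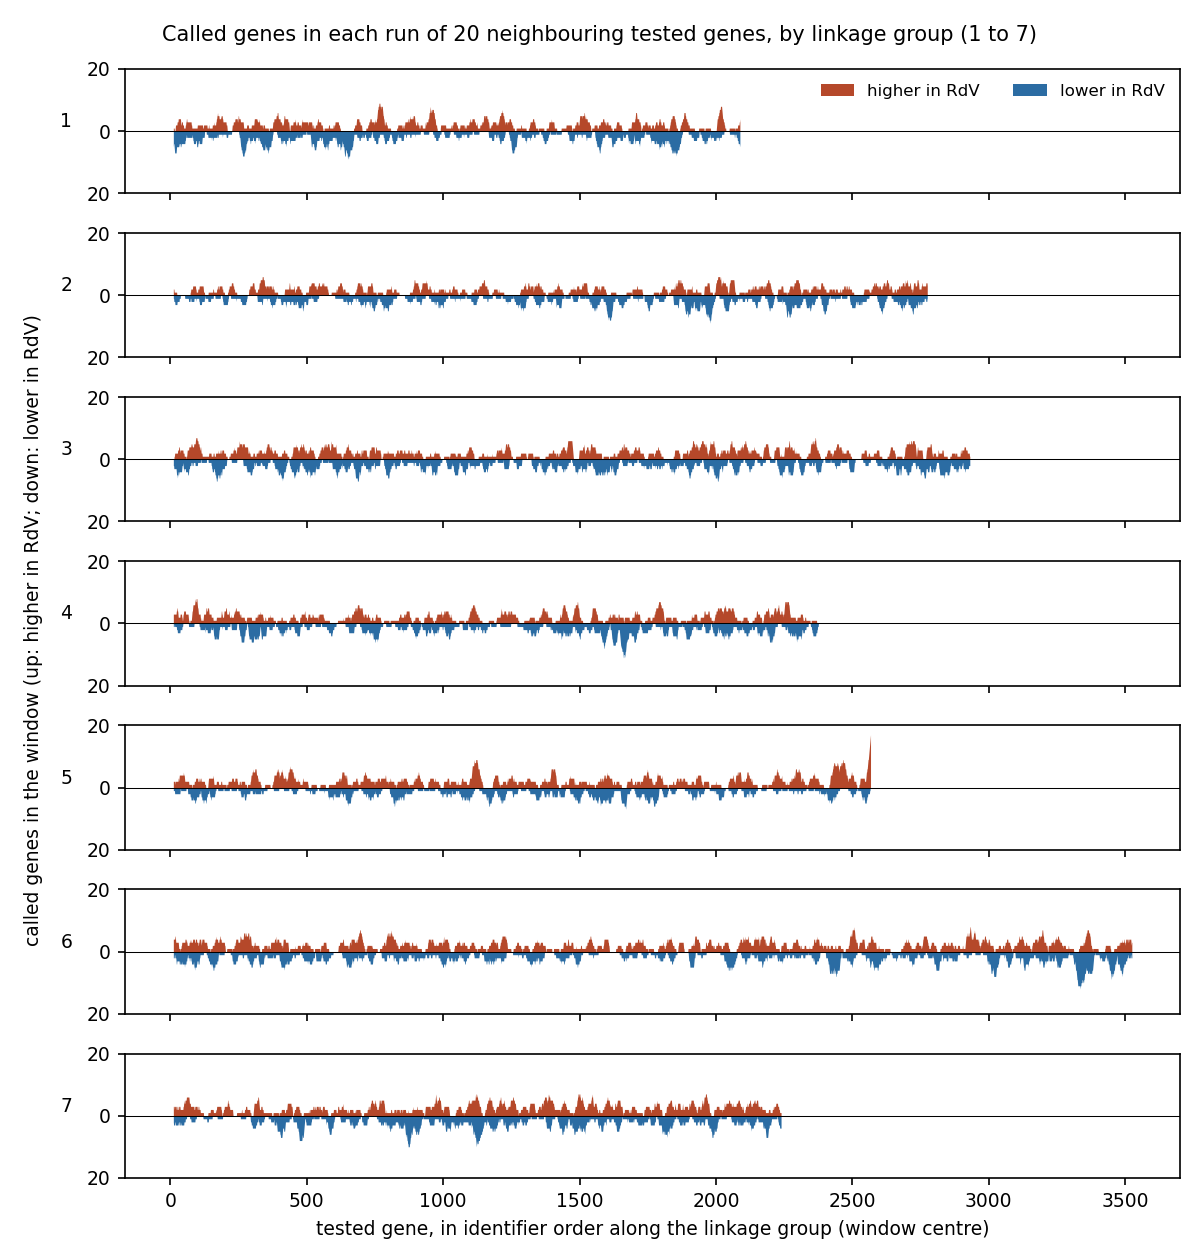
For linkage groups 1 to 7, the number of called genes in every window of 20 neighbouring tested genes, with higher genes drawn upward in red and lower genes downward in blue. The tallest peak is the 17 higher genes at the end of linkage group 5; the deepest trough is the 12 lower genes on linkage group 6.

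Long genes were more often higher in RdV and short genes more often lower. In the quartile of tested genes with the longest effective length, 606 of 1014 calls were higher (59.8%), and in the shortest quartile 330 of 869 (38.0%). The libraries of RdV did not share one trend with length. Across genes, the rank correlation of length with a library's log2 level relative to the mean of the 6 libraries was 0.249, −0.241 and 0.273 in RdV replicates 1, 2 and 3, and −0.134, −0.015 and −0.114 in FT3OE. RdV replicate 2 thus lay below every FT3OE library and the other RdV libraries above, so the groups overlapped. Without RdV replicate 2 the shares of higher calls were 70.8% in the longest quartile and 26.3% in the shortest, and with each library's length trend removed they were 53.5% and 49.3%.

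The number of calls moved with the library left out. Leaving out RdV replicate 2 gave 5183 calls, of which 3719 were among the 4122 with the same direction. Leaving out RdV replicate 1 gave 3361, leaving out RdV replicate 3 gave 3308, and leaving out 1 FT3OE library gave 2883 to 3089. In all, 2412 of the 4122 genes (58.5%) were called in the same direction in each of the 9 fits that left out 1 library, among them 783 of the 977 genes of at least 2-fold. Of the 84 genes high in RdV replicate 1 alone, 16 were tested. Of these 16, 8 were called, a larger share than the 22.2% of all genes tested. These genes were chosen for high counts in RdV replicate 1, a library of this contrast, which by itself makes calls likely. Without that library, 3 of those 8 were called.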

How the data were processed

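Per the labels' protocols, stranded mRNA libraries gave paired reads of 150 bp. The authors deposited expected counts, which are estimates that are not normalized, and TPM, divided by effective gene length and scaled to a fixed sum. The submitters' processing notes name edgeR, RSEM and STAR. Genome build and gene models: not given in the sources used here. Expected counts, whole in 97.5% of values, were rounded. In all, 10465 genes had 0 counts in every library.

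Genes were filtered with filterByExpr, TMM-scaled and tested with glmQLFit and glmQLFTest of edgeR 4.0.16 (R 4.3.3), all 9 libraries in one fit, which gives the 3 genotypes one spread per gene. Standard errors are the log2 change over the root of F. CPM use TMM-scaled totals. Effective length came from the ratio of counts to TPM, up to one factor. Intervals of count ratios are exact binomial ones at 95%. Sums and tests in Python 3.11.15 used scipy 1.17.1.

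Totals were 23110936 to 44916866 counts, so 3 counts are 0.0668 to 0.13 CPM. On simulated data with 200 changed genes among 18587 for RdV against FT3OE, edgeR found 44.8% of the 1.5-fold changes. It found 62.7% of the 2-fold and 92.4% of the 4-fold ones, and 6.99% of its calls were false. The simulation gave all genotypes the same spread for a gene. In the data the biological coefficient of variation was 15.2% within RdV, 7.82% within FT3OE and 7.81% within H4. These rates may therefore not hold for this contrast.

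Alternatives were RLE scaling, library totals, DESeq2 1.42.0, limma 3.58.1 on log2(TPM + 1) and on log2(TPM + 0.1), other filters, the 6 libraries alone, the replicate block, equal depth, a length correction, stricter thresholds and leaving out each library. Added after seeing the data were the block within the 6 libraries, limma voom with a weight per genotype, recounts of the densest windows, and the length shares without each library. Members, lists and alternatives were chosen with earlier results of these data known. Named genes are the 2 higher and 2 lower with the largest absolute log2 change among called genes whose libraries did not overlap and whose mean reached 5 CPM. The gene lists drawn up for named genes were not used, because identifiers carry no names.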

Additional observations from a re-analysis of the deposited data

Results flagged for a closer look

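In RdV replicate 1, 68 genes outside the tested set had at least 50 counts and at least 10 times the CPM of every other library, a signal in data that the comparison does not use. With 16 tested genes of the same kind they made 84, spread over all 7 linkage groups with 7 to 15 on each, and they held 0.0816% of that library's counts, with a median of 134.5 and a highest of 2228 counts per gene. RdV replicates 2 and 3 held 615 and 616 counts of these genes, FT3OE 395, 627 and 612, and H4 389 to 511.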

How the results depend on the processing

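The 4 named genes kept their direction and passed the threshold under all 23 alternatives. They were chosen from these same libraries for the largest changes, which by itself makes that outcome likely. The fitted log2 change of FvH4_3g23161 and FvH4_2g07530 was 3.26 and 3.91 with limma on log2(TPM + 1), since a pseudocount shrinks the change of genes at 0. The 4122 calls became 2281 at an adjusted p under 0.01. The labels do not say whether the replicate numbers pair the samples. Deviations of same-numbered libraries of RdV and FT3OE correlated at −0.008, −0.143 and 0.042. No RdV library correlated best with its own number. With so few libraries in a group, these values cannot decide whether the numbers pair samples. The replicate block gave 3611 calls, and within the 6 libraries alone 2059 (1105 higher, 954 lower), where the block leaves few residual degrees of freedom. Without the block, the 6 libraries alone gave 3434 and voom with a weight per genotype 3768. Leaving out 1 library gave 2883 to 5183 calls, with 1448 to 2500 higher and 1435 to 2683 lower, and 838 to 1130 of at least 2-fold. In all the fits at an adjusted p under 0.05, 1758 genes were called in the same direction. The 977 genes of at least 2-fold became 571 (309 higher, 262 lower) with limma on log2(TPM + 1), 555 (295 and 260) with a minimum mean of 1 TPM as well, and 372 with glmTreat, which tests against a 2-fold limit. Genes read on one side only ranged from 43 to 49 read in RdV and 40 to 48 read in FT3OE when 1 library was left out, and were 46 and 32 at equal depth. At 50 counts per library they were 19 and 20. The highest and lowest quartiles of level had 19.0% and 16.3% called in the fit of the 6 libraries; the highest had 21.8% with library totals and 28.4% with the length correction. Linkage groups 7 and 2 had 26.8% and 21.8% with the length correction, and 21.1% and 15.9% in the fit of the 6 libraries. Higher calls in the longest quartile were 55.7% with library totals and 53.5% with the length correction, whose construction takes the trend out, and 55.5% to 70.8% without 1 library. In the shortest quartile they were 49.3% with the length correction, 41.7% in the fit of the 6 libraries and 26.3% to 44.7% without 1 library. Genes called higher in that fit made up 11.1% of TPM in RdV and 7.80% in FT3OE, and genes called lower 7.01% and 10.2%, because fewer genes were called. A window of 40 genes held at most 47.5% higher calls, since it reaches past the end block of linkage group 5. That block kept 15 to 18 higher calls under every fit, and the densest lower window 10 to 12. For the other moved values the cause was not tested. Depth limits genes at 0 or a few counts.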
